A study of Mus musculus with 10 samples.

Results

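The 10 genes described here belong to the Bcl2 family, whose proteins decide at the mitochondrion whether a cell lives or undergoes programmed death. They are Bcl2, Bcl2l1, Bcl2l2 and Mcl1, which protect the cell, Bax and Bak1, which carry out the killing step, and Bcl2l11, Bad, Bid and Bbc3, which start it. They are 10 of the 32531 gene symbols counted in each library. The set was chosen by the small unadjusted p of Bcl2 for cocaine against saline in these same libraries, where Bcl2 was among the 1.1% of genes that were higher after cocaine at an unadjusted p under 0.05 in edgeR's quasi-likelihood test. That difference is therefore given below as a description only, and the other 9 members were added as relatives of Bcl2. All 10 were found in every library, with at least 12 reads each, and all 10 passed the filter on low counts.

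The libraries come from the whole striatum of adult mice that carry a Drd2-EGFP/Rpl10a transgene (line Drd2-TRAP CP101). In translating ribosome affinity purification (TRAP), a ribosomal protein fused to EGFP is made in 1 cell type and its polysomes are pulled down with antibodies to EGFP, so that the immunopurified (IP) RNA is that on the ribosomes of those cells. Every mouse carried the transgene, and it is driven by the promoter region of the dopamine D2 receptor gene, which also works in cholinergic interneurons. The 5 cocaine IP libraries (numbers 1 to 5) follow short access intravenous self-administration of cocaine, and the 3 saline IP libraries (numbers 1, 2 and 4) follow self-administration of saline. A further library holds the unbound RNA of a cocaine preparation, and another holds the input RNA of a saline preparation, so neither of these fractions has a replicate. The design asks which transcripts of D2 receptor neurons differ after cocaine intake. The labels do not say whether the IP libraries came from separate animals or from pools, and p-values below reflect the spread among these samples alone, which may be technical.

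Gene reads ranged from 22975667 to 31631137 in the cocaine IP libraries and from 27383303 to 31234994 in the saline IP libraries, with 20882691 in the unbound and 18408782 in the input library. A floor of 3 reads equals 0.0948 to 0.131 CPM (reads per 1000000 gene reads) in the IP libraries, and every member lay above it in every library. Per the sample descriptions, cocaine IP 1 and 2 and saline IP 4 were sequenced in lane 6, cocaine IP 3, 4 and 5 in lane 4, saline IP 1 and 2 in lane 7, and the unbound and input libraries in lane 1. Lane and treatment are therefore only partly separable, and fraction and lane cannot be told apart.

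The captured RNA matched its label. All 8 listed markers of indirect-pathway medium spiny neurons, the striatal output neurons that use the D2 receptor, exceeded their level in the comparison fraction by 2-fold or more in each IP library, and Drd2 itself averaged 1970 ± 341 CPM in cocaine IP (SD, n = 5), against 390 CPM in unbound RNA, and 2380 ± 231 CPM in saline IP (SD, n = 3), against 402 CPM in the input. Adora2a, the adenosine receptor gene of the same neurons, averaged 746 ± 131 CPM in cocaine IP and 846 ± 201 CPM in saline IP, against 95.5 CPM in unbound RNA and 133 CPM in the input. Markers of other cells were low in IP RNA: the summed level of 8 oligodendrocyte markers was 215 to 473 CPM in cocaine IP and 208 to 496 CPM in saline IP, against 5670 CPM in unbound RNA and 5290 CPM in the input. The sum of 8 astrocyte markers was 97.1 to 191 CPM in cocaine IP and 55.5 to 210 CPM in saline IP, against 2230 CPM in unbound RNA and 2340 CPM in the input. The 8 direct-pathway neuron markers summed to 81.2 to 156 CPM in cocaine IP and 93.3 to 116 CPM in saline IP, against 688 CPM in unbound RNA and 887 CPM in the input. Cholinergic interneuron markers and the 1 measured endothelial marker were the exceptions. In either comparison, 0 of 5 and 0 of 1 genes were past 2-fold lower in each IP library. The endothelial marker went the other way. In both comparisons it averaged more than 2-fold above the comparison fraction, although it did not reach 2-fold higher in every IP library. It is 1 of 8 listed endothelial markers, and the others were too low for a ratio, so it does not speak for the list. The sum of all 8 was 4.05 to 10 CPM in cocaine IP, against 7.52 CPM in unbound RNA. In saline IP that sum was 6.37 to 7.9 CPM, against 12.2 CPM in the input.

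The Bcl2 family acts at the outer membrane of the mitochondrion. Bax and Bak1 form pores there that release cytochrome c, which then switches on caspases through Apaf1. Pro-survival proteins hold Bax, Bak1 and the BH3-only proteins in a groove, and BH3-only proteins, made or activated under stress, fill that groove or act on Bax and Bak1 directly. Bax is the effector on which neuronal death is best known to depend, and Bcl2l1, whose long form is Bcl-xL, is a well known survival protein of mature neurons.

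What the 10 proteins share is the BH3 segment, a short helix by which they bind one another. The coding sequence of that segment is printed below for each gene because it is the feature by which the family is defined, and a pattern search of the GENCODE M21 coding sequences found it once in each of the 10 members. The pattern was leucine or methionine, any 3 residues, glycine, alanine or serine, aspartate, then aspartate, glutamate or glycine, and a hydrophobic residue. It was written from known segments of this family, so finding it in the members is no result, and 3.14% of 21810 coding sequences hold it. Each line gives 42 bases of genome build GRCm38 (mm10), 5′ to 3′ on the strand of the gene, with the 18 bases that encode the first 6 residues of the pattern in capitals. Each lies within 1 coding exon.
Bcl2, chr1:106712572-106712613, minus strand: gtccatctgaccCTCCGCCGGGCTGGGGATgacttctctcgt
Bcl2l1, chr2:152829694-152829735, minus strand: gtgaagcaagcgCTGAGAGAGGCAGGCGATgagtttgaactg
Bcl2l2, chr14:54884505-54884546, plus strand: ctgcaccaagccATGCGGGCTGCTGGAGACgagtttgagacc
Mcl1, chr3:95659424-95659465, plus strand: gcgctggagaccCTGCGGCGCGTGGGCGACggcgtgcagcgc
Bax, chr7:45465994-45466035, minus strand: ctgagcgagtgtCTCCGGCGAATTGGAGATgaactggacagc
Bak1, chr17:27022528-27022569, minus strand: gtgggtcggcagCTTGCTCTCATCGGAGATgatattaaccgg
Bcl2l11, chr2:128147138-128147179, plus strand: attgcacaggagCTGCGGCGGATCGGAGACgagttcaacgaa
Bad, chr19:6950780-6950821, plus strand: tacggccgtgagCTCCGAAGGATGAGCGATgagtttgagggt
Bid, chr6:120897286-120897327, minus strand: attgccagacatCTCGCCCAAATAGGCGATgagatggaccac
Bbc3, chr7:16313761-16313802, plus strand: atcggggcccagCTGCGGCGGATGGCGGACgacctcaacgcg
The last codon in capitals encodes aspartate in all 10. It follows a glycine codon in 8 members, a serine codon in Bad and an alanine codon in Bbc3.

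Levels of different genes were compared per kilobase of the union of annotated exons, as CPM per kb. In cocaine IP RNA the order of mean levels was Bax with 32.7 CPM per kb, Mcl1 with 18, Bcl2l2 with 14.3, Bcl2l1 with 10.7, Bad with 10.4, Bcl2 with 6.25, Bbc3 with 3.51, Bak1 with 3, Bcl2l11 with 0.396 and Bid with 0.283 (n = 5). The neighbours Bcl2l1 and Bad, Bbc3 and Bak1, and Bcl2l11 and Bid overlapped in their library values, and the other neighbours did not. Saline IP RNA gave Bax 33.4 CPM per kb, Mcl1 17, Bcl2l2 13.5, Bcl2l1 12.2, Bad 11.1, Bcl2 4.38, Bak1 3.58, Bbc3 3.28, Bid 0.379 and Bcl2l11 0.322 (n = 3). There Bcl2l2 overlapped Bcl2l1, Bcl2l1 overlapped Bad, Bcl2 overlapped Bak1, Bak1 overlapped Bbc3 and Bid overlapped Bcl2l11. Bax, the pore former, thus had the highest level per length in ribosome-bound RNA under both treatments, and the BH3-only genes Bcl2l11 and Bid had the lowest. The place of Bax depends on its short exon length, 1.576 kb, and the annotation used for counting is not given. In plain CPM, Bax averaged 51.6 in cocaine IP, below Bcl2l2 (63.8), Mcl1 (61.6) and Bcl2 (57.3). In saline IP it averaged 52.7 CPM, below Bcl2l2 (60.2), Mcl1 (58.2) and Bcl2l1 (56.1). In unbound RNA the first places were held by Mcl1 with 29, Bcl2l2 with 23.5 and Bax with 20.3 CPM per kb, and in the input by Bax with 26.8, Mcl1 with 22.6 and Bcl2l2 with 16.9 CPM per kb.

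**Figure D1:**
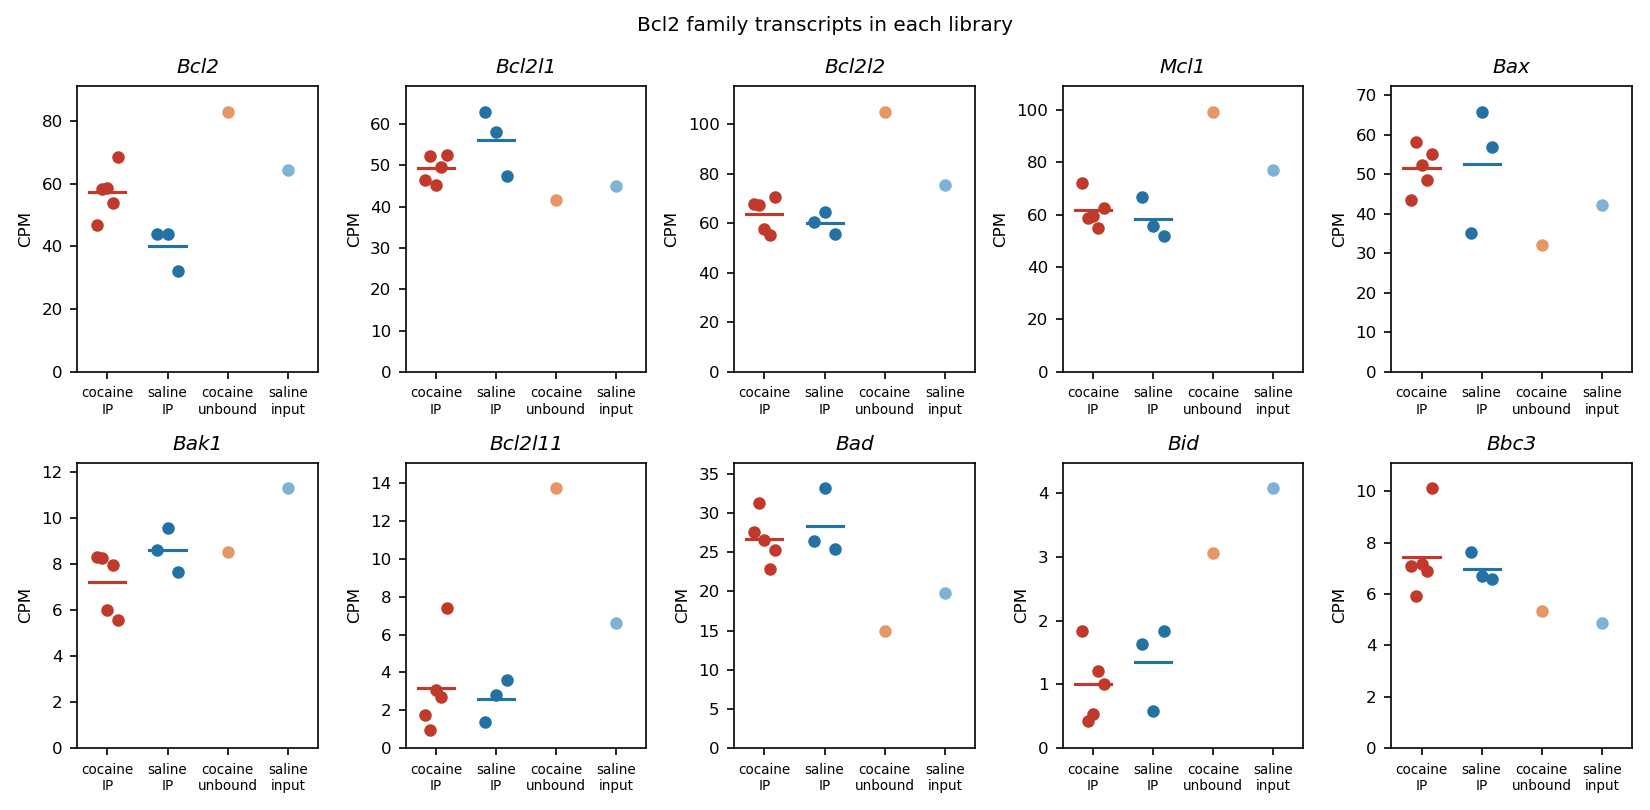
CPM (vertical axis, from 0, scaled for each gene) of the 10 Bcl2 family genes in cocaine IP (5 libraries), saline IP (3), cocaine unbound (1) and saline input (1). Points are libraries and bars are group means. Bcl2 is the gene whose cocaine IP points (46.8 to 68.6 CPM) all lie above its saline IP points (32.2 to 44.1 CPM), and Bcl2l11 and Bid are the genes with the highest relative scatter.

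By role, the 4 pro-survival genes made up 47.4% to 52.9% of the summed CPM per kb of the 10 members in the cocaine IP libraries. Their share was 56%, 43.6% and 43.8% in saline IP 1, 2 and 4, 67% in unbound RNA and 56.4% in the input. The saline IP libraries therefore lay on both sides of the cocaine IP range, and every cocaine IP library lay below the unbound library. The effector pair, Bax and Bak1, took 31.9% to 38.2% in cocaine IP, 28.1%, 41.4% and 41.5% in saline IP 1, 2 and 4, 22.6% in unbound RNA and 31.5% in the input. BH3-only genes took 14% to 15.2% in cocaine IP and 15.8%, 15% and 14.7% in saline IP 1, 2 and 4, above the 10.4% of unbound RNA and the 12% of the input in every IP library. All these shares rest on the same exon lengths.

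**Figure D2:**
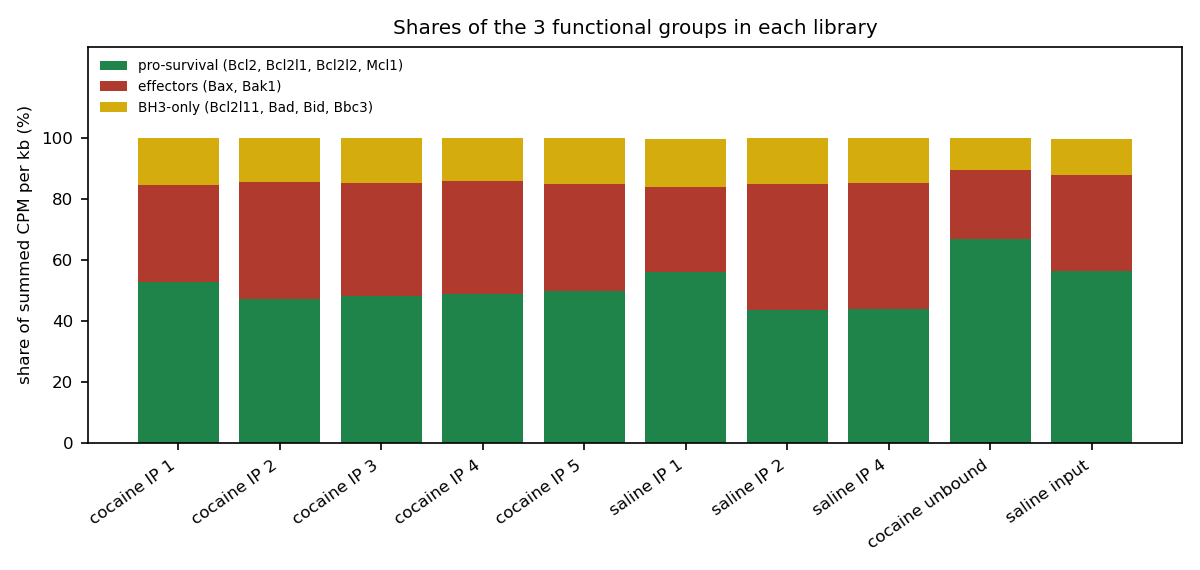
Share of the summed CPM per kb of the 10 members (vertical axis, %) taken by pro-survival, effector and BH3-only genes, as stacked bars from 0 for each library. The pro-survival share is 67% in unbound RNA and 47.4% to 52.9% in the cocaine IP libraries, and saline IP 1 (56%) stands above saline IP 2 and 4 (43.6% and 43.8%).

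The place of each transcript in ribosome-bound RNA was read from the log2 ratio of each IP library to the comparison fraction of its treatment, on TMM-scaled CPM plus 1 (TMM is a scaling by the trimmed mean of ratios, used for every ratio below). These ratios were not used to choose the members. No test was run, since each fraction has 1 library, and in RNA of mixed cells fewer cells of a type and less RNA per cell cannot be told apart. In every cocaine IP library 4 members lay above unbound RNA and 5 below. All genes measured gave 44.3% above and 29.9% below by the same rule. In every saline IP library 3 members lay above the input and 4 below, beside 44.2% and 32.8% of all genes. None of the 10 members was 2-fold away in every IP library. Among all genes, 3.78% lay 2-fold or more above unbound RNA in each cocaine IP library and 9.74% lay as far below it, and 1.64% and 11.6% lay that far above and below the input in each saline IP library. The median over the members was -0.20 against unbound RNA and -0.12 against the input, beside 0.17 and 0.13 over all genes. With library size alone in place of TMM the all-gene medians shift to -0.011 and -0.095, and each member named below as above or below on TMM scaling keeps its side. Bak1 in both comparisons and Bcl2l2 against the input, which had libraries on both sides of 0 with TMM, then lie below in every IP library.

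**Figure D3:**
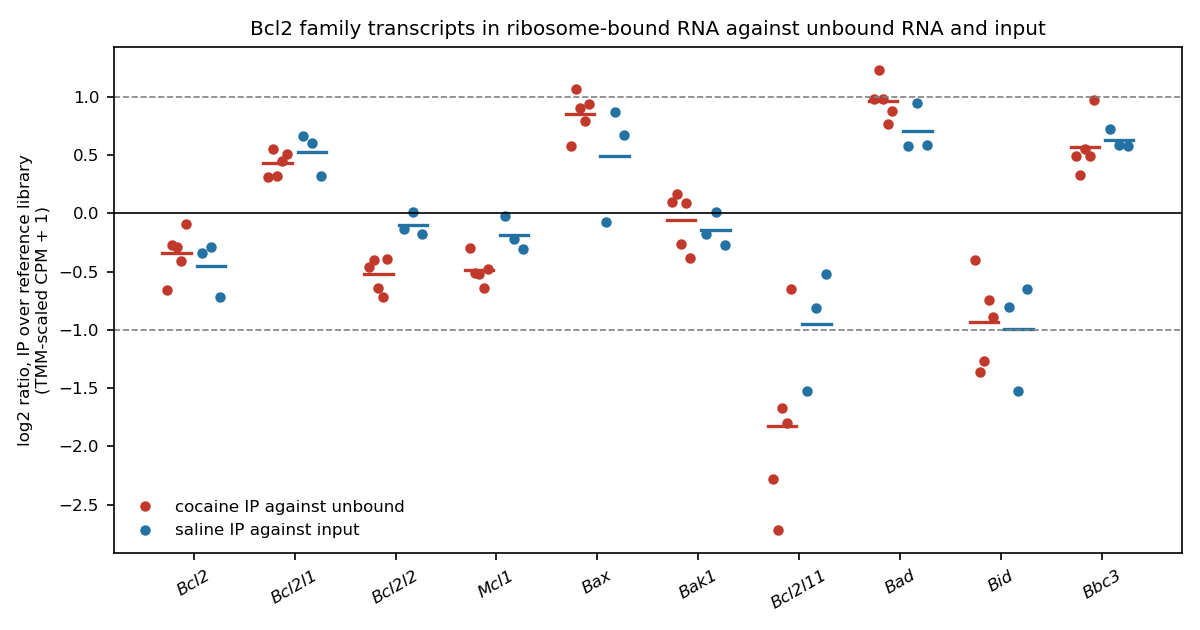
Log2 ratio (vertical axis, TMM-scaled CPM plus 1) of each cocaine IP library to unbound RNA and of each saline IP library to the input, for the 10 members. Points are IP libraries, bars are means and dashed lines mark 2-fold. Bcl2l1, Bad and Bbc3 lie above 0 in all 8 IP libraries, Bcl2, Mcl1, Bcl2l11 and Bid lie below 0 in all 8, and Bax lies above 0 in 7.

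Among the pro-survival genes, Bcl2 lay below and Bcl2l1 above the comparison fractions. Bcl2, the founding member of the family (chr1:106538178-106714274, minus strand), had 46.8, 58.3, 58.6, 53.9 and 68.6 CPM in cocaine IP 1 to 5, against 82.9 CPM in unbound RNA. It had 44.1, 44.1 and 32.2 CPM in saline IP 1, 2 and 4, against 64.3 CPM in the input. All 8 IP libraries except cocaine IP 5 lay below both fractions, and cocaine IP 5 lay between them. The mean log2 ratio was -0.34 ± 0.21 in cocaine IP against unbound RNA (SD, n = 5) and -0.45 ± 0.23 in saline IP against the input (SD, n = 3). Bcl2l1 (chr2:152780668-152831728, minus strand) had 46.5, 52.2, 45.3, 49.7 and 52.5 CPM in cocaine IP 1 to 5, against 41.6 CPM in unbound RNA, and 62.9, 58 and 47.4 CPM in saline IP 1, 2 and 4, against 45.1 CPM in the input. Every IP library was above its own fraction, with mean log2 ratios of 0.43 ± 0.11 in cocaine IP and 0.53 ± 0.18 in saline IP. The ratio of Bcl2 reads to Bcl2l1 reads within a library, which needs no scaling between libraries, was 1.01, 1.12, 1.3, 1.08 and 1.31 in cocaine IP 1 to 5, against 2 in unbound RNA, and 0.701, 0.76 and 0.68 in saline IP 1, 2 and 4, against 1.43 in the input. Bcl2 thus took fewer reads relative to Bcl2l1 in each IP library than in its comparison fraction.

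Mcl1, a pro-survival protein known for its rapid turnover (chr3:95658788-95663176, plus strand), had 72.1, 58.9, 59.5, 54.9 and 62.6 CPM in cocaine IP 1 to 5, against 99.2 CPM in unbound RNA. In saline IP 1, 2 and 4 it had 66.8, 55.7 and 52 CPM, against 77.2 CPM in the input. Its mean log2 ratios of -0.49 ± 0.12 in cocaine IP and -0.18 ± 0.15 in saline IP were below 0 in all 8 libraries, although saline IP 1 was at -0.02. Bcl2l2, which encodes Bcl-w (chr14:54883377-54888234, plus strand), had 68, 67.3, 57.9, 55.2 and 70.5 CPM in cocaine IP 1 to 5, against 105 CPM in unbound RNA, a mean log2 ratio of -0.52 ± 0.15. Its saline IP values of 60.4, 64.4 and 55.7 CPM, against 75.6 CPM in the input, gave -0.10 ± 0.10 with libraries on both sides of 0. Astrocyte and oligodendrocyte markers were lower in the same IP libraries, as given above, and their part in the levels of Bcl2, Mcl1 and Bcl2l2 in the comparison fractions was not tested.

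Of the effectors, Bax (chr7:45461697-45466898, minus strand) had 43.6, 58.1, 52.5, 48.7 and 55.1 CPM in cocaine IP 1 to 5, against 32 CPM in unbound RNA. It had 35.2, 65.8 and 57 CPM in saline IP 1, 2 and 4, against 42.3 CPM in the input. The 5 cocaine IP libraries were all above unbound RNA, whereas saline IP 1 lay below the input and saline IP 2 and 4 above it. Mean log2 ratios of Bax were 0.85 ± 0.18 in cocaine IP and 0.49 ± 0.49 in saline IP, where saline IP 1 stood at -0.07. Bak1, the other pore former (chr17:27019810-27029009, minus strand), had 8.3, 8.28, 6.01, 7.97 and 5.57 CPM in cocaine IP 1 to 5, against 8.52 CPM in unbound RNA, and 8.61, 9.6 and 7.67 CPM in saline IP 1, 2 and 4, against 11.3 CPM in the input. Its log2 ratios of -0.05 ± 0.25 and -0.15 ± 0.14 had libraries on both sides of 0 in either comparison.

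The reads of Bcl2 relative to those of Bax, a protector against an effector, were 1.07, 1, 1.12, 1.11 and 1.24 in cocaine IP 1 to 5, against 2.59 in unbound RNA. They were 1.25, 0.67 and 0.566 in saline IP 1, 2 and 4, against 1.52 in the input. Each IP library lay below its fraction. Within the saline IP group, the ratio of saline IP 1 was close to the highest cocaine IP ratio, 1.25 against 1.24 in cocaine IP 5. The ratios of saline IP 2 and 4 were below those of every cocaine IP library.

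The BH3-only genes split into a pair above and a pair below the comparison fractions. Bad, whose protein is held inactive by 14-3-3 proteins when phosphorylated (chr19:6941861-6951899, plus strand), had 27.5, 31.3, 26.6, 22.9 and 25.3 CPM in cocaine IP 1 to 5, against 15 CPM in unbound RNA, and 26.4, 33.1 and 25.4 CPM in saline IP 1, 2 and 4, against 19.8 CPM in the input. With mean log2 ratios of 0.97 ± 0.17 and 0.70 ± 0.21 it was above both fractions in all 8 IP libraries. Bbc3, which encodes Puma, a target of p53 (chr7:16308393-16318205, plus strand), had 7.09, 5.92, 7.18, 6.91 and 10.1 CPM in cocaine IP 1 to 5, against 5.32 CPM in unbound RNA, and 7.65, 6.68 and 6.57 CPM in saline IP 1, 2 and 4, against 4.89 CPM in the input. Its mean log2 ratios were 0.57 ± 0.24 in cocaine IP and 0.63 ± 0.08 in saline IP, again above 0 in every library.

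Bcl2l11, which encodes Bim (chr2:128126038-128162547, plus strand), had 1.74, 0.968, 3.07, 2.73 and 7.4 CPM in cocaine IP 1 to 5, against 13.7 CPM in unbound RNA, from 55, 27, 97, 70 and 170 reads against 287 reads. It had 1.38, 2.79 and 3.58 CPM in saline IP 1, 2 and 4, against 6.63 CPM in the input. Its mean log2 ratio of -1.82 ± 0.78 in cocaine IP against unbound RNA was the lowest of the 10 members, with cocaine IP 5 at -0.65 and the other libraries between -2.72 and -1.67. Against the input the saline IP libraries averaged -0.95 ± 0.52. Bid, which links death receptors to mitochondria after cleavage by caspase 8 (chr6:120891930-120916853, minus strand), had 1.84, 0.43, 0.537, 1.21 and 1 CPM in cocaine IP 1 to 5, against 3.06 CPM in unbound RNA, and 1.63, 0.579 and 1.83 CPM in saline IP 1, 2 and 4, against 4.07 CPM in the input. These values rest on 58, 12, 17, 31 and 23 reads in cocaine IP and 51, 17 and 50 reads in saline IP. All 8 IP libraries were below their fraction, with mean log2 ratios of -0.93 ± 0.39 and -0.99 ± 0.46. For both genes the pseudocount of 1 CPM understates the difference, and microglial markers, which summed to 2.8 to 6.18 CPM in cocaine IP and 3.98 to 8.36 CPM in saline IP, against 58 CPM in unbound RNA and 72.9 CPM in the input, moved the same way. Their part in the result was not tested.

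Cocaine against saline in ribosome-bound RNA is the contrast that brought Bcl2 to attention, so the values that follow describe these libraries. Bcl2 averaged 57.3 ± 7.95 CPM in cocaine IP (SD, n = 5) and 40.1 ± 6.83 CPM in saline IP (SD, n = 3), a 1.44-fold higher level with a log2 fold change of 0.52 (SE 0.15). All 5 cocaine IP values were above all 3 saline IP values, with 46.8 CPM in cocaine IP 1 closest to the 44.1 CPM of saline IP 1 and 2. The 95% Poisson interval, which covers counting error only, was 44.4 to 49.2 CPM for cocaine IP 1 and overlapped those of saline IP 1, 41.8 to 46.5 CPM, and saline IP 2, 41.7 to 46.5 CPM. Saline IP 4, the lowest library, had 30.2 to 34.4 CPM. Some marker lists of other cells leaned up or down, but their sums overlapped between the treatments. All 6 markers of cortical and thalamic glutamatergic neurons had positive log2 fold changes (median 0.72), with sums of 2.5 to 25.1 CPM in cocaine IP and 3.41 to 17.5 CPM in saline IP, against 235 CPM in unbound RNA and 171 CPM in the input. Microglial markers were positive in 0 of 6 (median -0.38), oligodendrocyte markers in 1 of 8 (median -0.24), direct-pathway neuron markers in 7 of 8 (median 0.19) and astrocyte markers in 4 of 8 (median -0.02). Over all genes 7121 of 13800 were positive. None of these markers had an unadjusted p under 0.05 in edgeR's quasi-likelihood test, and none passed the adjusted test. Their part in the level of Bcl2 was not tested. Across all genes, 2.34% of 13800 had groups that did not overlap, 1.15% with cocaine higher and 1.19% with cocaine lower. No gene passed an adjusted p of 0.05 by edgeR's quasi-likelihood test with Benjamini-Hochberg adjustment (0%, smallest adjusted p 0.9998), with 295 genes, or 2.14%, at an unadjusted p under 0.05, and DESeq2 also called 0, with 363 at an unadjusted p under 0.05. Thus 0 of the 10 members passed, Bcl2 included. These tests did not pair the libraries by number. With the number as a block in libraries 1, 2 and 4 of both treatments, 0 genes passed and the smallest adjusted p was 0.0599 (edgeR's quasi-likelihood test).

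The difference in Bcl2 was uneven across the libraries that share a number. Plain log2 ratios of cocaine to saline CPM were 0.09 for number 1, 0.40 for number 2 and 0.74 for number 4. With lane as a covariate the log2 fold change was 0.69 (SE 0.23). Lane 4 held only cocaine and lane 7 only saline IP libraries, so this value rests on lane 6, with cocaine IP 1 and 2 against saline IP 4. Lane 6 alone is thus the same comparison and gave 0.69 (SE 0.27), on the assumption that the lone saline library varies like the others. Without the 3 cocaine libraries of lane 4 it was 0.39 (SE 0.19), and without saline IP 4 it was also 0.39. Over 18 alternatives it ranged from 0.39 to 0.69, and its sign is no sign of stability, since the groups do not overlap. In GENCODE M21 the antisense gene D630008O14Rik shares 558 exon bases with Bcl2, 6.09% of the exon length of Bcl2, and the strand setting of the authors' counting is not given in the sources used here. Whether the counting separated, dropped or mixed reads of the antisense transcript and of Bcl2 in that stretch is therefore not known.

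The other 9 members had log2 fold changes of -0.42 to 0.29, and the cocaine and saline IP values of each overlapped. Bcl2l1 averaged 49.2 ± 3.29 CPM in cocaine IP and 56.1 ± 7.89 CPM in saline IP, with a log2 fold change of -0.18 (SE 0.12). Bcl2l2 (0.09, SE 0.12) and Mcl1 (0.09, SE 0.12) had the same log2 fold change as each other. For the effectors, Bax had a log2 fold change of -0.02 (SE 0.19) and Bak1 one of -0.25 (SE 0.18). Among the BH3-only genes the log2 fold changes were 0.29 (SE 0.54) for Bcl2l11, -0.07 (SE 0.14) for Bad, -0.42 (SE 0.50) for Bid and 0.10 (SE 0.18) for Bbc3. The members' median was 0.03, beside 0.01 over all genes, with 5 positive and 5 negative. None of these differences exceeded the spread between replicates by the adjusted test. The SE was widest for Bcl2l11 and Bid, the members with the fewest reads, and changes of that size were not detectable there.

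**Figure D4:**
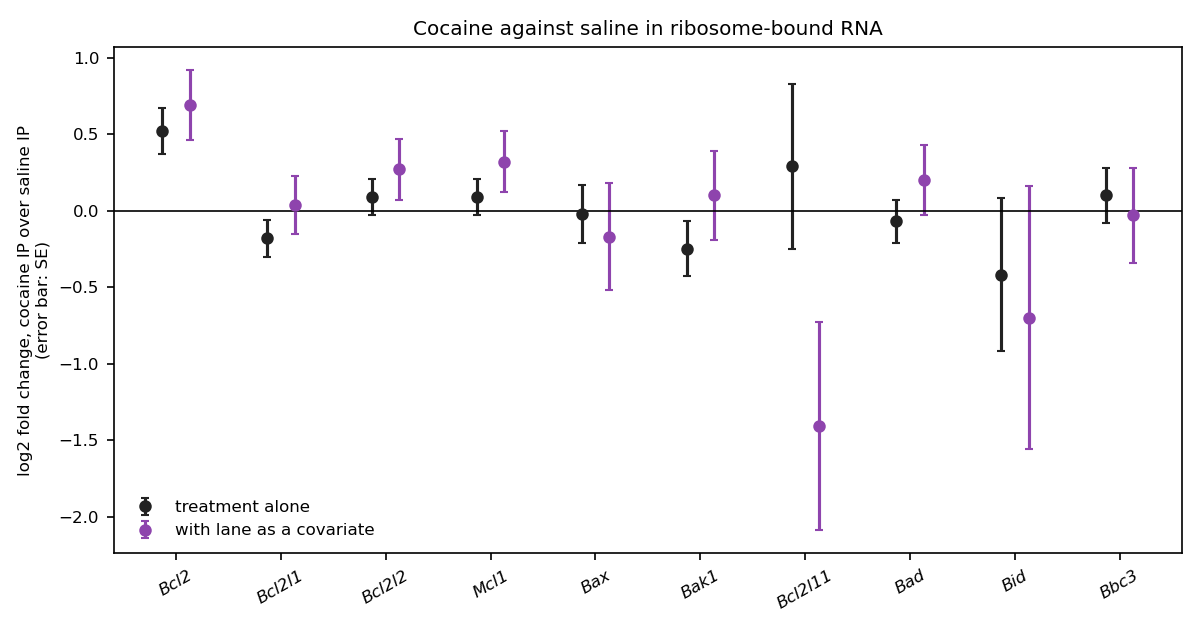
Log2 fold change of cocaine IP over saline IP (vertical axis) for the 10 members, with treatment alone in black and with sequencing lane as a covariate in purple, and error bars of 1 SE. Bcl2 is at 0.52 and 0.69, while Bcl2l11 is at 0.29 with treatment alone and at -1.41 with lane. The values with lane rest on lane 6, with cocaine IP 1 and 2 against saline IP 4.

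Bcl2l11 was the member that differed most between libraries and lanes. It averaged 3.18 ± 2.5 CPM in cocaine IP and 2.58 ± 1.12 CPM in saline IP, and its coefficient of variation over the 8 IP libraries, 67.8%, was the highest of the 10 members, against 11.2% from read counting alone. Its 3 cocaine libraries of lane 4 had 3.07, 2.73 and 7.4 CPM, and its cocaine libraries of lane 6 had 1.74 and 0.968 CPM, so that the lanes did not overlap within 1 treatment. The same lanes did not overlap for Bak1 and Bad either, where lane 4 was the lower. With so few libraries such a split arises easily, and the share of all genes that show it was not counted. The log2 fold change of lane 4 over lane 6 among cocaine IP libraries was 1.68 (SE 0.50), which did not pass across all genes (adjusted p = 0.862 by edgeR's quasi-likelihood test with Benjamini-Hochberg adjustment). In that contrast 0 of 13746 genes passed (0%), with 744 genes, or 5.41%, at an unadjusted p under 0.05. Leaving out cocaine IP 2, so that the lone library of lane 6 is assumed to vary like those of lane 4, raised the count to 407 genes, with 0 members among them. Within lane 6, saline IP 4 had 3.58 CPM of Bcl2l11, above both cocaine libraries of that lane. The cocaine to saline log2 fold change with lane as a covariate, which rests on these same lane 6 libraries, was -1.41 (SE 0.68). No direction with cocaine can therefore be given for Bcl2l11. Without cocaine IP 5 the value was -0.28, and without saline IP 1 it was -0.04.

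Bcl2 by contrast had a lane 4 over lane 6 log2 fold change of 0.20 (SE 0.17; adjusted p = 0.883 by the same edgeR test), and Bid one of -0.31 (SE 0.63), which became 1.04 without cocaine IP 1 and -0.98 without cocaine IP 2. The coefficient of variation over the 8 IP libraries was 51.8% for Bid and 22.3% for Bcl2, where read counting alone gives 17.6% and 2.64%. It was 9.5% for Bcl2l2, 11% for Mcl1, 11.7% for Bcl2l1, 12.2% for Bad, 17.3% for Bak1, 17.4% for Bbc3 and 18.2% for Bax. The 3 pro-survival genes other than Bcl2 thus had the lowest values over the pooled IP libraries, with Bcl2l1 close to Bad. The pooled value of Bcl2 includes the treatment difference for which it was chosen, and was 13.9% within cocaine IP and 17% within saline IP. Within saline IP alone the ranking did not hold, as Bbc3 (8.55%) and Bak1 (11.2%) were below Mcl1 (13.2%) and Bcl2l1 (14.1%). Within cocaine IP it did.

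For Bid, Bax, Bcl2l2, Mcl1 and Bad the lowest library had the same number under both treatments, and for the other members it did not. The share of all genes with this trait was not counted. Same-numbered libraries also correlated over genes in general (0.709, 0.628 and 0.321 for numbers 1, 2 and 4, described below). The trait can therefore not be called particular to these members. Bid had 1.84 CPM in cocaine IP 1 and 1.63 CPM in saline IP 1, 0.43 CPM in cocaine IP 2 and 0.579 CPM in saline IP 2, and 1.21 CPM in cocaine IP 4 and 1.83 CPM in saline IP 4. Bax had 43.6 CPM in cocaine IP 1 and 35.2 CPM in saline IP 1, 58.1 and 65.8 CPM in cocaine and saline IP 2, and 48.7 and 57 CPM in cocaine and saline IP 4. Number 1 was the lowest for Bax and number 2 the lowest for Bid under both treatments, although the libraries of numbers 1 and 2 ran in lane 6 after cocaine and in lane 7 after saline. Number 4 was the lowest for the other genes, in lane 4 after cocaine and lane 6 after saline. Its cocaine and saline IP values were 55.2 and 55.7 CPM for Bcl2l2, 54.9 and 52 CPM for Mcl1, and 22.9 and 25.4 CPM for Bad.

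**Figure D5:**
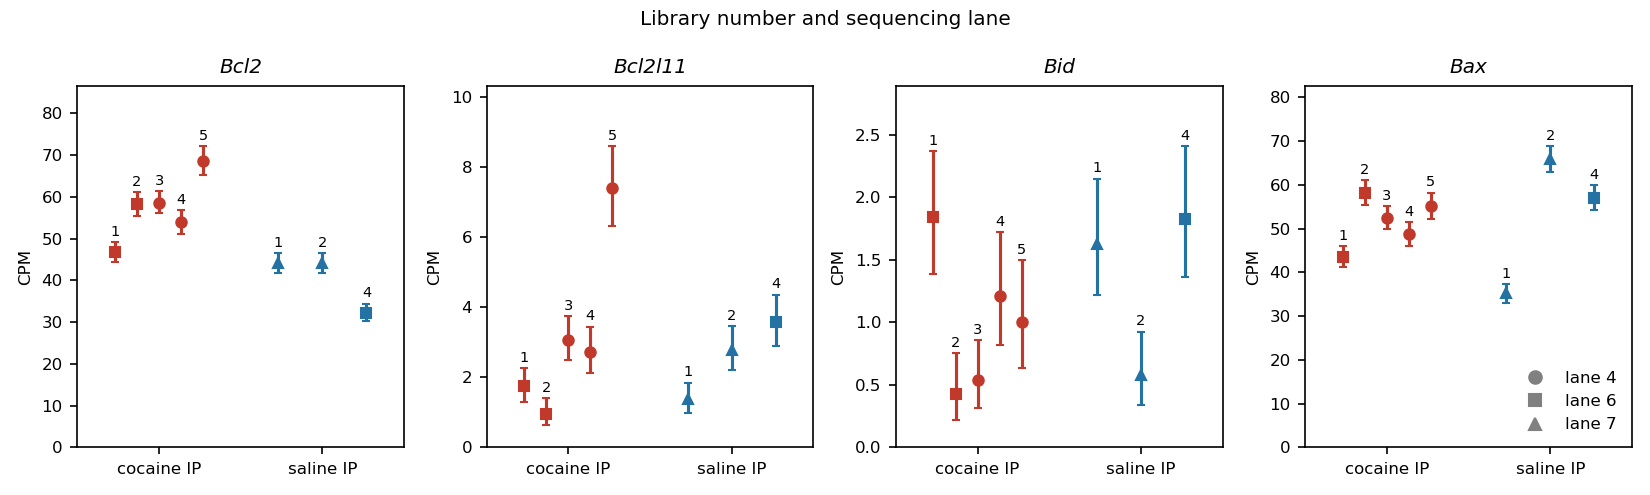
CPM (vertical axis, from 0) of Bcl2, Bcl2l11, Bid and Bax in each IP library, with the library number above each point, the sequencing lane as its shape and the 95% Poisson interval of the read count as its bar. Bcl2l11 has 7.4 CPM in cocaine IP 5 and 0.968 CPM in cocaine IP 2, and Bax is lowest in number 1 under both treatments.

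Several members share exons with a neighbouring gene in GENCODE M21, and 4, Bcl2l1, Bcl2l11, Mcl1 and Bbc3, do not. Bad shares 524 exon bases (20.5% of its exon length) with Gpr137 on the other strand, Bak1 shares 437 (18.2%) with Ggnbp1 and Bid 628 (17.7%) with Bcl2l13, which is a relative in the Bcl2 family. A further gene entry named Ggnbp1 shares 177 bases (7.35%) with Bak1. On the same strand, Bcl2l2 shares 594 bases (13.3%) with Gm20521 and Bax 192 (12.2%) with Gm45808. The levels of these members are uncertain for that reason, since counting can drop or reassign reads in shared exons. The share of exon bases does not give the share of reads affected.

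Genes of the wider pathway showed no called difference with cocaine. Of 15 further listed Bcl2 family genes 7 were measured for cocaine against saline, and 0 passed (median log2 fold change -0.04). Highest were Bnip3l, a mitophagy receptor with 153 ± 14.9 CPM in cocaine IP and 150 ± 22.8 CPM in saline IP, and Hrk, a neuronal BH3-only gene with 86.6 ± 9.31 CPM in cocaine IP and 94.3 ± 16.6 CPM in saline IP. Hrk averaged a log2 ratio of 0.16 ± 0.16 in cocaine IP against unbound RNA and 0.88 ± 0.23 in saline IP against the input. Bnip3, the partner of Bnip3l in mitophagy, had 57.1 ± 5.29 CPM in cocaine IP and 59.6 ± 6.65 CPM in saline IP. None of this list was 2-fold away from unbound RNA (5 measured) or the input (6 measured) in every IP library.

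The apoptosome, caspases and inhibitors of apoptosis, the steps after cytochrome c release, had 14 of 16 genes measured, 0 past the threshold for cocaine against saline and a median of 0.00. Xiap, which inhibits caspases, lay 2-fold or more below unbound RNA in each cocaine IP library, at 78.5 ± 9.63 CPM against 260 CPM. In saline IP it had 74.6 ± 9.99 CPM, against 167 CPM in the input, and did not reach 2-fold in every library. Birc6 had 111 ± 16 CPM in cocaine IP and 117 ± 21.3 CPM in saline IP, and Birc2 42.7 ± 0.993 and 44.2 ± 2.05 CPM, with cocaine to saline log2 fold changes of -0.06 (SE 0.14) and -0.04 (SE 0.10).

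All 19 listed partners and regulators of the family were measured, with 0 past the threshold for cocaine against saline and a median of 0.04. The 14-3-3 genes Ywhaz and Ywhab, whose proteins bind phosphorylated Bad, had 4110 ± 436 and 1170 ± 114 CPM in cocaine IP and 3790 ± 418 and 1180 ± 209 CPM in saline IP. Gsk3b, a kinase that marks Mcl1 for breakdown, had 1610 ± 149 CPM in cocaine IP and 1430 ± 78.8 CPM in saline IP, a log2 fold change of 0.18 (SE 0.11). Bag3, a cochaperone that binds Bcl2, was the 1 gene of this list that lay 2-fold or more below its fraction in each IP library, with 1.73 ± 0.404 CPM in cocaine IP, against 9.05 CPM in unbound RNA, and 1.48 ± 0.661 CPM in saline IP, against 10.2 CPM in the input.

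Of 8 death receptor genes, which act upstream of Bid, 6 were measured and 0 passed (median 0.37). Cflar, an inhibitor of caspase 8, had 3.13 ± 1.58 CPM in cocaine IP and 1.81 ± 0.722 CPM in saline IP, a log2 fold change of 0.79 (SE 0.38), and cocaine IP 5 alone reached 5.92 CPM. Each IP library lay 2-fold or more below its fraction, which had 16.2 CPM in unbound RNA and 12 CPM in the input. Fadd, the adaptor of death receptors, had 2.93 ± 0.462 CPM in cocaine IP and 1.99 ± 0.424 CPM in saline IP, a log2 fold change of 0.56 (SE 0.24), and Tnfrsf21, a death receptor of neurons, had 57.2 ± 12.5 CPM and 51.2 ± 4.76 CPM, a log2 fold change of 0.17 (SE 0.18).

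The genes whose profile over all 10 libraries was most like that of Bcl2, by the root mean square difference of centred log2 values among the 9970 genes that averaged 5 CPM or more, were Rhoq (0.176), AK039878 (0.18), Ispd (0.18), Dcdc2a (0.182) and AK003208 (0.182). Rhoq, a small GTPase gene, had 29.2 ± 3.86 CPM in cocaine IP, 25.6 ± 2.23 CPM in saline IP, 45 CPM in unbound RNA and 34.3 CPM in the input. AK039878, which no annotation used here names, had 54.4 ± 10 CPM in cocaine IP, 37.6 ± 4.69 CPM in saline IP, 74.3 CPM in unbound RNA and 69.5 CPM in the input. Both had the order of Bcl2, with unbound RNA first, then the input, cocaine IP and saline IP. As they were picked for likeness to Bcl2 over these same libraries, that shared order is no separate result.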

How the data were processed

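The authors deposited 1 table of raw read counts per gene symbol for each of 10 libraries. Per the submitters' processing notes, STAR 2.0.0e and HTSeq were used with build mm10. For that counting, annotation, strand setting and treatment of overlapping genes were not given in the sources used here. HTSeq's special counters stayed out of library sizes and tests. Among gene, no-feature and ambiguous reads, reads in no feature were 12.9% to 14.4% in IP libraries, 27.4% in unbound RNA and 25.5% in the input. Groups and numbers come from sample titles and lanes from descriptions. No pair of libraries in a group agreed within sampling noise (chi-square per degree of freedom of 21.5 or more).

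The members and gene lists were chosen with earlier results of these data known. Named besides the members are, from each pathway list, the 3 genes with the highest mean CPM over the IP libraries and any past a threshold, the first genes of marker lists, and the 5 profiles nearest to Bcl2. A gene that the rule would name is not reported here. A few genes are named outside that rule as overlapping neighbours or for a value singled out after it was seen.

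Cocaine and saline IP counts were compared in edgeR 4.0.16 (R 4.3.3, limma 3.58.1) with TMM scaling, filterByExpr, the quasi-likelihood test and Benjamini-Hochberg adjustment over 13800 genes at 0.05; SE is the log2 fold change divided by the root of its F statistic. The test was run on simulated counts first. DESeq2 1.42.0, other scalings and filters, lane, the library number and leaving out each library were alternatives. IP ratios used genes that averaged 1 CPM or more, a pseudocount of 1 CPM and a limit of 2-fold in every IP library. Libraries of both treatments share numbers 1, 2 and 4. Deviations from group means of same-numbered libraries correlated at 0.709, 0.628 and 0.321 over the 9618 genes that averaged 5 CPM or more, each library correlating best with its own number, so the numbers were taken to pair the libraries. This rests on the data alone, as no label explains the numbers. The main test of cocaine against saline, and the SE values from it, did not use this pairing. The fit with the number as a block, on libraries 1, 2 and 4 of both treatments, is given at the end. Positions, exon lengths and sequences are from GENCODE M21 (GRCm38), which matched 10 of 10 members by symbol. Intervals and floors cover counting error only, as reads carry no molecular identifiers.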

Additional observations from a re-analysis of the deposited data

Results flagged for a closer look

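Among 47 named genes, the 10 members included, 4 had a cocaine IP library far from the other 4, and none of these was a member. Chance alone picks out about 1 in 20 groups by this measure. Cflar was at 5.92 CPM in cocaine IP 5, where the other cocaine IP libraries had 2.12 to 2.85 CPM. Pecam1, an endothelial marker, was at 0.435 CPM in the same library, where the others had 0 to 0.108 CPM. Chat, the cholinergic marker, was at 5.32 CPM in cocaine IP 1, where the others had 1.31 to 1.99 CPM, and the interneuron gene Npy was at 3.1 CPM there, where the others had 1.26 to 1.54 CPM.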

How the results depend on the processing

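Leaving out 1 library, another scaling, filter or tool, lane or the library number left 0 genes past the threshold for cocaine against saline. With the library number as a block 0 genes passed, 903 had an unadjusted p under 0.05 and the smallest adjusted p was 0.0599 (edgeR), against 141 in the same 6 libraries without it. In that block fit Bcl2 had a log2 fold change of 0.41 (SE 0.11), against 0.40 without the number. The lane contrast gave 0 to 407 genes when each library was left out. Saline IP against the input had 211 genes higher, which became 70 with library size alone, 125 with a pseudocount of 5 CPM and 325 to 377 without 1 library, and 1495 lower, which became 781 with that pseudocount and 660 at a mean of at least 5 CPM. Cocaine IP against unbound RNA had 478 higher, which became 247 with library size alone and 294 with a pseudocount of 5 CPM, and 1231 lower, which became 756, 556 with the stricter filter and 1891 with none. The cause was not tested. For the members, 164 of 178 alternative values for cocaine against saline stayed within 1 SD of the library values and 24 changed sign. The sign was kept for Bcl2, whose groups do not overlap, and for Bcl2l2, Mcl1 and Bid, and changed under some setting for the other 6 (Bcl2l1, Bax, Bak1, Bcl2l11, Bad and Bbc3). For the ratios, 69 of 78 values against the input and 91 of 98 against unbound RNA stayed within 1 SD, and 1, for Bak1, changed sign. Bcl2l11 and Bid give no value at a mean of at least 5 CPM. Their depth, 12 to 170 reads per IP library, and the single unbound and input libraries limit the values.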
